A study of Mus musculus with 6 samples.

Results

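The Schlafen genes of the mouse are a family of growth-regulatory genes that sit side by side on chromosome 11. The 7 members described here, Slfn1, Slfn2, Slfn3, Slfn4, Slfn5, Slfn8 and Slfn9, were found by symbol among the 49585 gene rows of a count table. They were selected on their scaled counts in the 6 libraries, set side by side between the genotypes, so their values in that comparison are given as a description and support nothing by themselves. All 7 had enough reads to enter the fit across 13744 genes. The libraries came from poly(A) RNA of mouse bone marrow leukaemia cells called MA9, a usual short name for leukaemia driven by the MLL-AF9 fusion. Of these, 3 carried Gata2 f/f, loxP-flanked alleles of a blood stem cell transcription factor, and 3 were labelled Gata2 -/- or Gata2 KO and described as Cre samples. All 6 cultures grew with murine IL-3, IL-6 and SCF and were kept for 18 h in 5 uM Nutlin, which blocks the binding of MDM2 to p53. No culture without Nutlin was analysed here. The labels do not give the Cre driver, the age of the mice, or whether the 3 samples of a genotype were separate leukaemias.

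Schlafen proteins take their name from the German word for sleeping, after the growth arrest that Slfn1 imposes on thymocytes. The family falls into a short form (Slfn1 and Slfn2), an intermediate form (Slfn3 and Slfn4) and a long form with a helicase-like domain (Slfn5, Slfn8 and Slfn9). All forms share a core that binds RNA, and in several members this core binds or cuts transfer RNA. Many members are induced by type I interferon, and their levels change as T cells leave quiescence and as myeloid cells mature.

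Total counts ran from 17138687 to 26440960 per library. The targeted gene, Gata2, stood at 33.6, 22.3 and 18.4 CPM (TMM-scaled counts relative to library size) in the f/f libraries 1, 2 and 3. Gata2 KO 1 and 3 had 5.44 and 4.33 CPM, but the library labelled Gata2 KO 2 had 43.3 CPM, above every f/f library. This level goes against its label, though counts per gene cannot show whether the label is wrong. Every direction between genotypes given below includes that library unless stated. The libraries numbered 3 stood apart from the other 4 in both genotypes, and what a number means is not in the labels. Of all genes tested, 21.1% were above the other 4 libraries in both libraries numbered 3 and 20.4% were below. In bulk RNA, fewer cells of a type and less RNA per cell cannot be told apart.

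The 7 genes lie within 264 kb of GRCm38 chromosome 11, and all are protein-coding. From the Slfn5 end the order is Slfn5 (82951349 to 82964840, plus strand), Slfn9 (82978390 to 82991830, minus), Slfn8 (83002158 to 83020810, minus), Slfn2 (83065112 to 83070678, plus), Slfn1 (83116849 to 83122670, plus), Slfn4 (83175186 to 83190216, plus) and Slfn3 (83191330 to 83215154, plus). The annotated coding sequences hold 337 and 378 codons in Slfn1 and Slfn2, 640 and 602 in Slfn3 and Slfn4, and 884, 910 and 910 in Slfn5, Slfn8 and Slfn9. Slfn3 and Slfn4 were 92.7% identical over their aligned coding bases, and so were Slfn8 and Slfn9. Slfn1 and Slfn2 were 71.9% identical.

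The promoters of the 4 members whose levels differed between the library numbers are shown here, since these genes moved in opposite directions. RefSeq windows (GRCm38.p6) of 250 bases before to 50 after a start were matched for 7 of 7 members. Capitals mark either the core of the interferon-stimulated response element (GAAA, any pair of bases, GAAA) on either strand, or ACTTCCTGG, the longest run shared by the windows of Slfn1, Slfn2, Slfn3 and Slfn4. Each sequence reads 5′ to 3′ on the strand of its gene, and the windows are chr11:83116570-83116869 (plus strand) for Slfn1, chr11:83064862-83065161 (plus) for Slfn2, chr11:82951852-82952151 (plus) for Slfn5 and chr11:82991781-82992080 (minus) for Slfn9.
Slfn1: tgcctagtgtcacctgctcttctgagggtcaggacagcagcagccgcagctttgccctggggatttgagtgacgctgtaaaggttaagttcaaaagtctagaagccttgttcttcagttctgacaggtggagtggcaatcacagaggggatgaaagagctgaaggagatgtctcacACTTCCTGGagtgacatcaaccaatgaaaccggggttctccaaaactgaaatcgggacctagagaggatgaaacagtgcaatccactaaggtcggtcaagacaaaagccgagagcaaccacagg
Slfn2: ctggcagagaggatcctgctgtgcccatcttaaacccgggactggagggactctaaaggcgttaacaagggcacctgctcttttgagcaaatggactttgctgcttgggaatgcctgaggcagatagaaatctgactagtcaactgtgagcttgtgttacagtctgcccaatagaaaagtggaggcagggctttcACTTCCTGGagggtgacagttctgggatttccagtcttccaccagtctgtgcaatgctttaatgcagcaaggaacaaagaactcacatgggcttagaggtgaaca
Slfn5: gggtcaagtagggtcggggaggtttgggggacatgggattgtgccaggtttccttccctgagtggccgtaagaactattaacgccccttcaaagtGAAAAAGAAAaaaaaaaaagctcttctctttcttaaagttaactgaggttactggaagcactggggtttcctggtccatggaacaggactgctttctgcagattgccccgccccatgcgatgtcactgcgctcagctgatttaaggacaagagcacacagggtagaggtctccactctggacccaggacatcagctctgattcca
Slfn9: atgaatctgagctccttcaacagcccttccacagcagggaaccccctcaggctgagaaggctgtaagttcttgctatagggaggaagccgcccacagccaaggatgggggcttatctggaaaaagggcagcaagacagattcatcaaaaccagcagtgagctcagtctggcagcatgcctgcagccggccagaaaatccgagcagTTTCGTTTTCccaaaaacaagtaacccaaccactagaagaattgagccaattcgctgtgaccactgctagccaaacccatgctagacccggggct

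Positions are counted from the RefSeq transcript start of each window, which can differ from the gene start given above, and the Slfn5 window lies inside the GENCODE gene. ACTTCCTGG began at -74 in Slfn1, -55 in Slfn2, -73 in Slfn4 and -42 in Slfn3, and was in no window of Slfn5, Slfn8 or Slfn9. It was in 0.843% of all 32851 promoter windows on either strand. The run was found in these very windows, so its presence in the 4 genes follows from how it was chosen. In Slfn1 and Slfn4 the shared stretch was longer, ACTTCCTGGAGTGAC. The interferon-stimulated core was in 3.44% of all windows, and among the members in those of Slfn5, Slfn8 and Slfn9 only. It began at -155 in Slfn5, as GAAAAAGAAA, and at -45 in Slfn9 and -48 in Slfn8, as TTTCGTTTTC, a match on the opposite strand. The other RefSeq start of Slfn8 placed the same match at -136. The interferon-gamma element TTCNNNGAA (8.3% of windows) was in none of the 7. AGATAA, a form of the site that the protein family of Gata2 binds (11.2% of windows), was in Slfn9 only. Other forms of that site were not searched, and the Slfn2 window printed above holds AGATAG. No match of one motif overlapped a match of another. Each match is a run of letters and not a measured binding site.

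Per length, Slfn2 was the most abundant member in all 6 libraries. Its level per kb of merged exons was 81.9 ± 87.3 CPM in the f/f libraries against 145 ± 144 CPM in the KO libraries (SD, n = 3 each). Over the 6 libraries the order of mean levels per kb was Slfn2 (113), Slfn1 (10.6), Slfn3 (4.66), Slfn9 (3.61), Slfn4 (1.25), Slfn5 (1.18) and Slfn8 (0.589). Slfn9 was above Slfn4 in 5 of 6 libraries, and their means differed by 1.18 times the larger SD. The other neighbours in this order differed by less than the larger SD of the pair. Without Gata2 KO 3 the mean of Slfn1 was 3.74, which put it behind Slfn3 and Slfn9, and that of Slfn5 was 0.666. Slfn1 was above Slfn3 in 2 of 6 libraries, and it was the lowest of the 7 in Gata2 f/f 1 and 2. Slfn2 alone made up 41.8% of the summed CPM of the family in Gata2 f/f 1, where that sum was 117 CPM, and 79.7% in Gata2 KO 3, where it was 649 CPM.

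Slfn1 and Slfn2, the short members, had higher values in the Gata2 KO library of every number. Slfn1, the founding growth-arrest gene, had 0.399, 0.401 and 24.4 CPM in Gata2 f/f 1, 2 and 3, from counts of 7, 9 and 613. Gata2 KO 1, 2 and 3 gave 6.4, 2.66 and 84.5 CPM, from counts of 134, 49 and 2012. The groups overlapped, because Gata2 f/f 3 was above the libraries labelled Gata2 KO 1 and 2, while within numbers 1, 2 and 3 the Gata2 KO value was 16.0, 6.63 and 3.46 times that of Gata2 f/f. The log2 fold change was 1.89 ± 1.78 (SE), and 2.58 ± 0.41 with the number as a block.

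Slfn2, whose loss in mice breaks the quiescence of T cells and monocytes, had 48.8, 56.3 and 304 CPM in Gata2 f/f 1, 2 and 3. The KO libraries gave 117, 87.2 and 517 CPM. The layout was that of Slfn1 on a higher level, with ratios of 2.41, 1.55 and 1.70 within numbers 1, 2 and 3 and a log2 fold change of 0.82 ± 0.92. Blocking on the number gave 0.89 ± 0.18. The same 6 libraries stood in the same order for both genes.

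Slfn3 and Slfn4, the intermediate members, had opposite signs between genotypes. Slfn4, a gene that interferon and Toll-like receptor ligands induce in macrophages, had 3.02, 3.08 and 3.58 CPM in f/f libraries 1, 2 and 3, against 6.69, 4.83 and 8.53 CPM in KO libraries 1, 2 and 3. It was the 1 member whose groups did not overlap, with every Gata2 KO library above every Gata2 f/f library, and its log2 fold change was 1.05 ± 0.34. Slfn3, studied mainly in gut epithelium and T cells, had 21.6, 19.0 and 13.9 CPM with Gata2 f/f, against 15.4, 21.1 and 4.37 CPM in the KO libraries. The groups overlapped, the lowest value was that of Gata2 KO 3, and the log2 fold change was -0.41 ± 0.53.

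Among the long members, Slfn5, a nuclear protein induced by interferon, followed Slfn1 and Slfn2. Its values were 1.77, 1.61 and 11.8 CPM for f/f 1, 2 and 3, against 2.10, 3.37 and 24.3 CPM for KO 1, 2 and 3. Gata2 KO was the higher of each number, by 1.19, 2.10 and 2.06 times, although Gata2 f/f 3 was above the libraries labelled Gata2 KO 1 and 2 (log2 fold change 0.97 ± 1.13). Slfn9 had 39.0, 18.1 and 11.5 CPM with Gata2 f/f, against 29.8, 24.3 and 6.60 CPM in the KO libraries. Its groups overlapped and its lowest values were those of number 3 in each genotype (log2 fold change -0.18 ± 0.63). Slfn8, its near copy, was the faintest member, at 2.22, 1.92 and 3.82 CPM with Gata2 f/f, against 1.77, 1.03 and 3.70 CPM in the KO libraries (log2 fold change -0.29 ± 0.56). Slfn8 was lower in the Gata2 KO library of every number, though in number 3 the log2 difference was only -0.05.

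**Figure D1:**
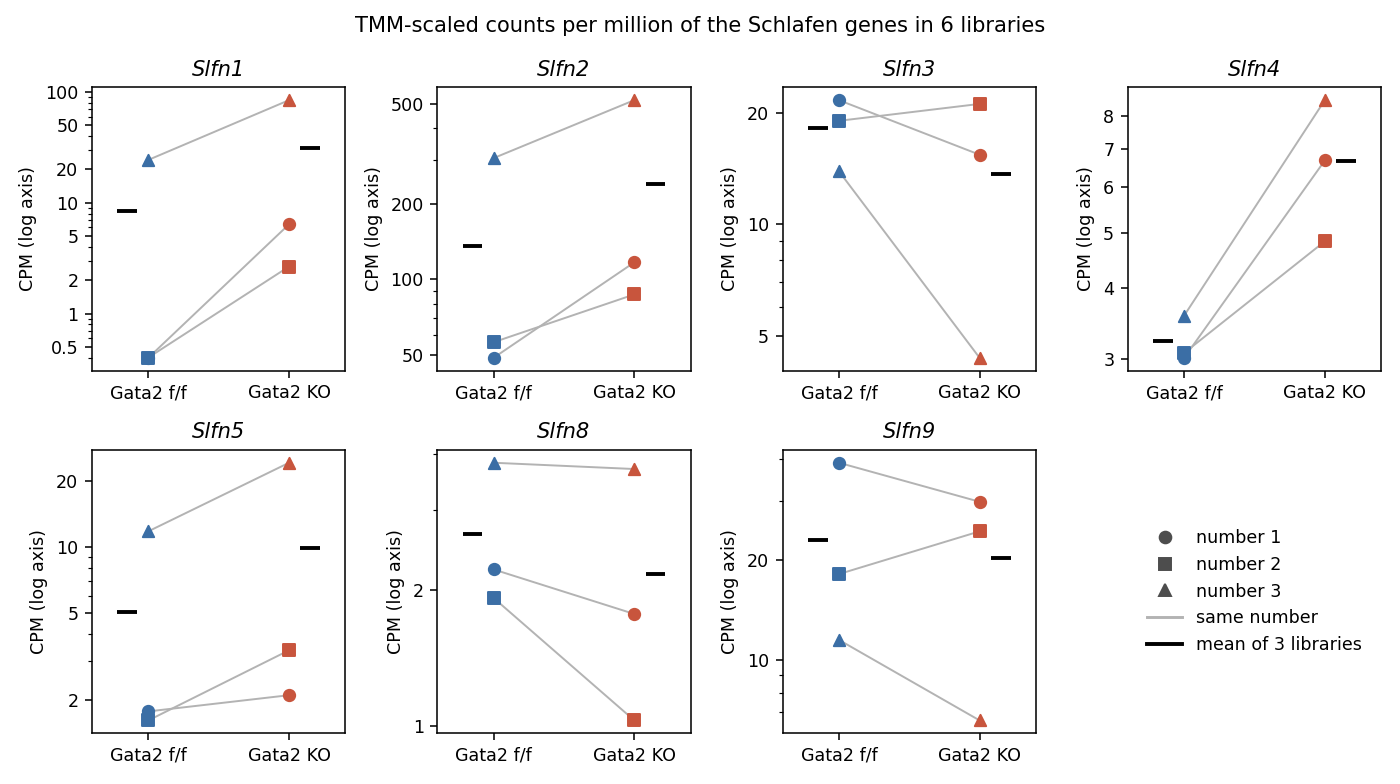
TMM-scaled CPM (log axis, a scale of its own in each panel) of the 7 Schlafen genes in the 3 Gata2 f/f and 3 Gata2 KO libraries; symbols give the library number, grey lines join equal numbers and black bars are means. For Slfn1, Slfn2, Slfn4, Slfn5 and Slfn8 number 3 is the top value in both genotypes, and for Slfn3 and Slfn9 it is the bottom value. For Slfn4 alone the 3 Gata2 KO libraries (4.83 to 8.53) are all above the Gata2 f/f libraries (3.02 to 3.58).

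Counts of calls between genotypes are given with their background, and nothing is read from them, since the members were chosen with this comparison known. The quasi-likelihood test of edgeR called 0 of 7 members and 0 of 13744 genes (0%) at an adjusted p of 0.05, with or without the number as a block. At an unadjusted p under 0.05 it had 171 genes without the block and 1473 with it, while DESeq2 called 7 genes without the block and 222 with it (1.62%), of which Slfn1 and Slfn2 were 2. Groups that did not overlap, higher in Gata2 KO, held 1 of 7 members and 2.64% of all genes, and those lower in Gata2 KO held 0 of 7 and 2.78%. Values above Gata2 f/f in the Gata2 KO library of each number were found for 4 of 7 members (Slfn1, Slfn2, Slfn4 and Slfn5) and 20.7% of all genes. Values below it in each number were found for 1 of 7 (Slfn8) and 17.7%.

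Single libraries set several of these directions in the fit without a block. Without Gata2 KO 3, which leaves Gata2 f/f 3 as the only library of its number, the log2 fold changes turned to -0.92 for Slfn1, -0.43 for Slfn2 and -0.90 for Slfn5. Without both libraries numbered 3 they were 3.44 ± 0.58, 0.92 ± 0.23 and 0.66 ± 0.43, and with the block but without the library labelled Gata2 KO 2 they were 2.59 ± 0.49, 1.01 ± 0.32 and 0.69 ± 0.44. In that last fit, added after seeing the data, edgeR called Slfn1 (adjusted p = 0.0232) among 54 genes, and neither Slfn2 (0.265) nor Slfn5 (0.854). Slfn4 ranged from 0.81 to 1.23 over 15 alternatives. Slfn3 was negative in all 15, but only -0.01 ± 0.29 without Gata2 KO 3. The sum of Slfn3 and Slfn4, mostly Slfn3, had -0.07 ± 0.32. Slfn9 turned to 0.39 without Gata2 f/f 1 and to 0.22 without Gata2 KO 3. Slfn8 turned to 0.04 without Gata2 f/f 3 and to 0.03 without the library labelled Gata2 KO 2. Without Gata2 f/f 3, Slfn1, Slfn2 and Slfn5 had 6.24, 2.16 and 2.53.

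Differences between the library numbers were larger than those between genotypes for 6 of the 7 members. This comparison sets number 3 against the mean of numbers 1 and 2 with the genotype in the fit, which is not the contrast the members were selected on. The same 6 values per gene were in view when they were selected, so the calls are not independent evidence about the family. An F test over the 3 numbers (edgeR, adjusted over all genes) called 4 of 7 members, against 9.09% of all genes. Slfn1, Slfn2 and Slfn5 were higher in number 3, a call that 6.63% of genes shared, and Slfn9 was lower, as were 2.46%. By rank alone, 4 members (Slfn1, Slfn2, Slfn5 and Slfn8) had both libraries numbered 3 above the other 4, as had 21.1% of all genes. Both were below in 2 members (Slfn3 and Slfn9) and in 20.4% of all genes.

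For Slfn1 the log2 difference was 5.00 ± 0.40 (SE; edgeR, adjusted p = 0.00681). Number 3 was 61.0 times the mean of numbers 1 and 2 in Gata2 f/f and 18.7 times in Gata2 KO. For Slfn2 the log2 difference was 2.44 ± 0.18 (adjusted p = 0.00609), with ratios of 5.79 (f/f) and 5.06 (KO). These ratios were close to each other for Slfn2, and their difference between genotypes was not tested.

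For Slfn5 it was 3 ± 0.27 (edgeR, adjusted p = 0.00875), with ratios of 6.99 and 8.90. Slfn9 went down, by a log2 difference of -1.61 ± 0.31 (adjusted p = 0.0413), number 3 being 0.403 times the mean of the others in Gata2 f/f and 0.244 times in Gata2 KO. Its call was lost without Gata2 f/f 1 (adjusted p = 0.0616) and without Gata2 KO 3 (0.0868), and that of Slfn5 without Gata2 KO 3 (0.0547). With no genotype term in the fit, Slfn1 (0.114) and Slfn9 (0.0526) were lost. Over 12 alternatives the adjusted p of Slfn9 ran from 4.55e-05 to 0.0868, while Slfn2 was called in all 12, its adjusted p reaching 0.0392.

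The other 3 members did not pass the test. Slfn3 had -1.22 ± 0.40 (edgeR, adjusted p = 0.169), and was called by DESeq2 (adjusted p = 0.0436). It was also called by edgeR without Gata2 f/f 2 (0.0370) and without Gata2 f/f 3 (0.0277). Slfn8 had 1.16 ± 0.35 (0.130) and Slfn4 0.41 ± 0.28 (0.496). Slfn4, the member whose genotype groups did not overlap, had the smallest difference between numbers.

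**Figure D2:**
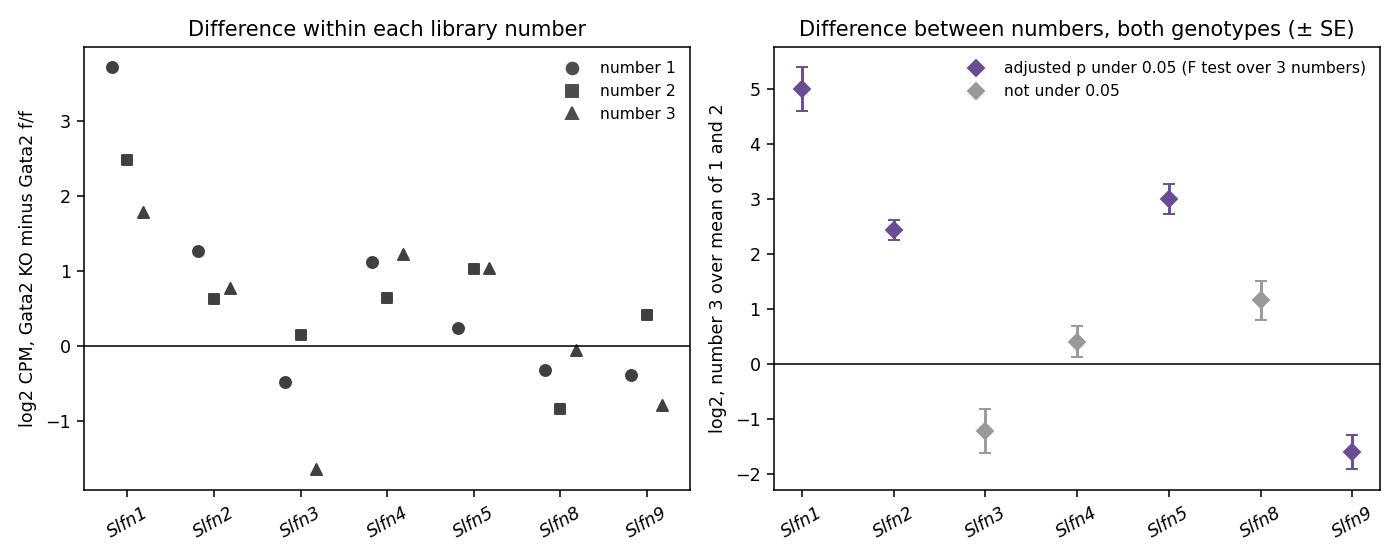
Left, log2 CPM of Gata2 KO minus Gata2 f/f within each library number (prior count 2) for the 7 Schlafen genes; right, log2 of number 3 over the mean of numbers 1 and 2 from the fit with genotype, ± SE, with genes past an adjusted p of 0.05 in purple. Slfn1, Slfn2, Slfn4 and Slfn5 are above 0 in each number on the left, and on the right Slfn1 is highest at 5.00 and Slfn9 lowest at -1.61.

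Along the cluster, adjacent members had the same sign between numbers in some pairs and opposite signs in others. Slfn8, Slfn2, Slfn1 and Slfn4 follow each other with positive values (1.16, 2.44, 5.00 and 0.41), while Slfn9 beside Slfn5 and Slfn3 beside Slfn4 had the opposite sign of their neighbour. Slfn8 and Slfn9, 92.7% identical in coding bases and on the same strand, had 1.16 and -1.61. The pseudogene Slfn10-ps, between Slfn8 and Slfn2, was at 1.47 to 2.98 CPM in the 6 libraries, with a log2 difference of 0.28 ± 0.45 between numbers. Unc45b, the protein-coding gene beyond Slfn5, had 0.59 ± 0.47, from only 9 to 24 reads per library (0.43 to 1.01 CPM). Nle1, beyond Unc45b, had -0.52 ± 0.18 (41.0 to 68.0 CPM). Neither passed the test, and both were chosen by position after the values were seen. Slfn14, which lies beyond Slfn3 and acts in platelet formation, had at most 0.109 CPM, and Slfnl1 on chromosome 4 had no count in any library.

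**Figure D3:**
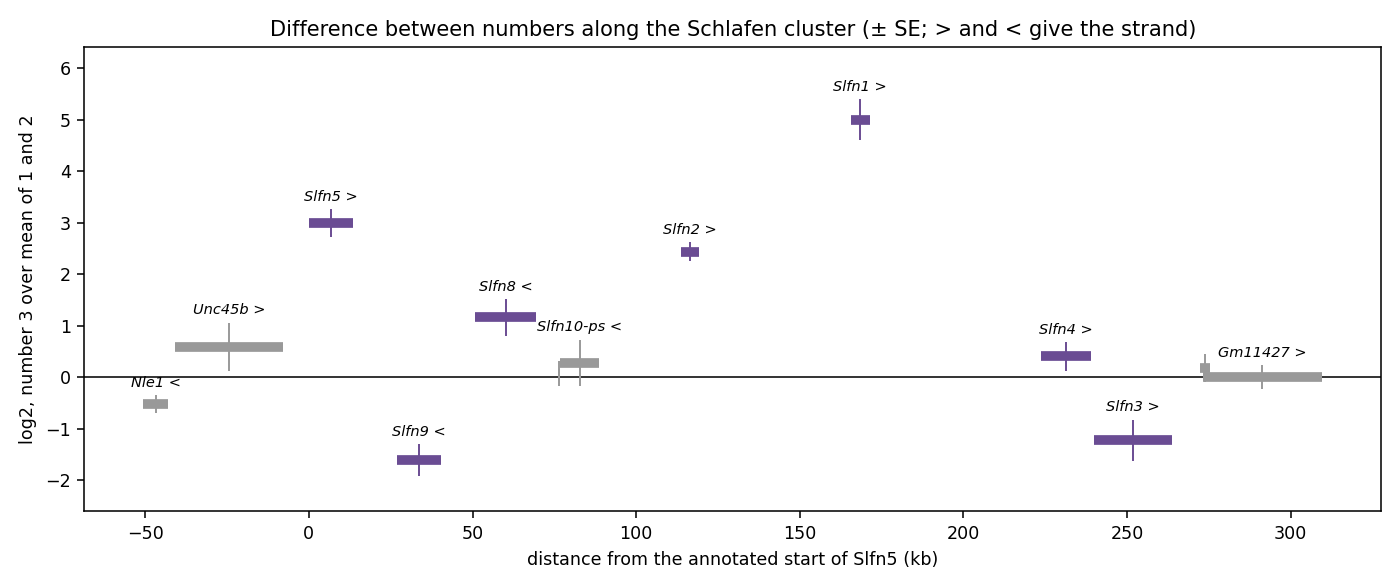
Tested genes of the Schlafen cluster by distance from the annotated start of Slfn5 (x axis, kb) and by the log2 difference of number 3 over the mean of numbers 1 and 2 (y axis); thick bars span each gene, thin lines are ± SE, the 7 members are purple and other genes grey, the unnamed ones being Gm11425 and AI662270. Slfn1, Slfn2 and Slfn5 stand at 2.44 or above, while Slfn9 and Slfn3, also members, lie below 0 and Unc45b, beyond Slfn5, lies at 0.59.

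Reads of near-identical members can be split or shared by counting, so the overlap of their transcripts was measured. Of all 90-base windows of a member's transcripts, the length of a read, the share also found in the transcript of another gene on the same strand was 0% for Slfn1, 0.762% for Slfn2, 3.83% for Slfn3, 1.01% for Slfn4, 0.697% for Slfn5, 4.57% for Slfn8 and 4.38% for Slfn9. Slfn3 shared 3.03% of its windows with the pseudogene Gm11427 beside it, and 0.177% with Slfn4. Slfn8 shared 1.88% of its windows with Slfn9 and 3.40% with Slfn10-ps. Slfn5 shares 6.31% with the opposite strand of the antisense gene Slfn5os, which had no count in any library. Whether the counting used strand is not given in the sources used here. When near copies were summed, Slfn8 with Slfn9 had a log2 difference between numbers of -1.18 ± 0.27 (edgeR, adjusted p = 0.0530), and Slfn3 with Slfn4 had -0.65 ± 0.23 (0.206). Each sum is made mostly of its more abundant member, Slfn9 or Slfn3, and takes its sign, so it does not measure how reads were divided between copies. The sum of Slfn1 and Slfn2 had 2.57 ± 0.18 (0.00537), and that of all 7 genes had 1.90 ± 0.15 (0.00681).

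The genes most like each member over the 6 libraries are given as a description. With 6 points that fall into number 3 and the rest, 569 of 9920 genes had a Pearson r over 0.95 with Slfn1, 584 with Slfn2 and 456 with Slfn3. Slfn2 was followed most closely by Pgpep1 (r = 0.999), Dnase1l1 (0.998) and Plin2, a lipid droplet coat protein (0.997). Slfn1 was followed by the kinase gene Dyrk1b (0.999) and the lysosomal genes Arsg (0.998) and Cln3 (0.998), and Slfn5 by Gstt3 (0.997), Cyp4f13 (0.996) and Vti1b (0.996).

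On the other side, Slfn3 was followed by Ddx17, Mecom and Rad18 (0.998, 0.998 and 0.997). Mecom, a stem cell transcription factor gene, had 26.1, 24.6 and 10.8 CPM with Gata2 f/f, against 15.8, 29.3 and 0.882 CPM in the KO libraries. Slfn9 was followed by Jmy (0.998), Pik3r4 (0.995) and Cntrob (0.995). Slfn4 had fewer close genes, 24 over 0.95, led by Dtx3 (0.999), Dbnl (0.998) and Sh3gl1 (0.990). Slfn8 had 5, led by Smyd3 (0.981).

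Interferon genes are the usual setting of this family, and a part of them had the layout of Slfn1, Slfn2 and Slfn5. Between genotypes edgeR called 0 of 33 tested interferon-induced genes, of which 29 had a positive log2 fold change (median 0.40, against 52.5% positive and a median of 0.02 over all genes). Between numbers it called 8 of 33 (24.2%, against 9.09% of all genes), all higher in number 3. Ifi27 had 11.9, 15.3 and 94.1 CPM with Gata2 f/f, against 22.7, 18.7 and 178 CPM in the KO libraries (log2 difference between numbers 2.95 ± 0.20, adjusted p = 0.00503). Zbp1, a sensor of Z-form nucleic acids, had 1.94 ± 0.25 (0.0175), and Bst2, which tethers virus particles, had 1.19 ± 0.18 (0.0263). The guanylate-binding gene Gbp3 had -0.41 ± 0.20 (0.301), and Oas1g had 2.87 ± 0.61 (0.0646), and neither passed.

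Interferon receptor and signalling genes numbered 17, with 3 of them also in the induced list, and 16 had positive values between genotypes (median 0.34) and 0 were called. Between numbers 6 were called (35.3%, against 9.09% of all genes), all higher in number 3. Among them were the transcription factor gene Irf8 (1.48 ± 0.22; edgeR, adjusted p = 0.0247) and the interferon-gamma receptor gene Ifngr2 (1.10 ± 0.16; 0.0256), the latter named after its value was seen. Other genes of the list were not called, with log2 differences of 0.38 ± 0.18 for Ifnar2, -0.32 ± 0.20 for Ifngr1 and 0.07 ± 0.19 for Jak1, and Irf1 had 0.50 ± 0.21.

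Growth arrest genes, the other role of the family, had 17 of 19 positive values between genotypes (median 0.18; 0 called) and 5 called between numbers (26.3%, against 9.09% of all genes), all higher in number 3. The cell cycle inhibitor gene Cdkn1a, a target of p53, had a log2 difference between numbers of 1.52 ± 0.17 (edgeR, adjusted p = 0.0137), and the quiescence factor gene Klf2 had 1.81 ± 0.27 (0.0248). Cdkn2c (1.4 ± 0.32), Foxo3 (0.01 ± 0.26) and Cdkn1c (1.56 ± 0.49) were not called. Of 9 tested genes for transfer RNA cleavage and RNA decay, 3 were called between numbers (33.3%, against 9.09% of all genes) and 0 between genotypes, with 6 positive values there (median 0.29). Rnh1, the inhibitor of the ribonuclease angiogenin, had 1.38 ± 0.18 between numbers (0.0206) and Samhd1, which degrades nucleotides, 1.06 ± 0.18 (0.0352). Ang itself was at 1.14 to 3.78 CPM (0.82 ± 0.44), Zc3h12a had 0.59 ± 0.27 and Zc3hav1 -0.22 ± 0.19, and none of these 3 was called.

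Markers of monocytes and macrophages moved with the libraries in which Slfn1, Slfn2 and Slfn5 were high, and those of mature neutrophils did so in part. The summed level of 18 monocyte and macrophage genes was 1158 and 1235 CPM for f/f 1 and 2, 2782 and 2146 CPM in KO 1 and 2, and 7418 and 9357 CPM in Gata2 f/f 3 and KO 3, and 14 of 18 were called between numbers (77.8%, against 9.09% of all genes). Lyz2, the macrophage lysozyme, had 218, 168 and 3053 CPM with Gata2 f/f, against 1024, 715 and 4245 CPM in the KO libraries, whereas Ly6c2 (554 to 1025 CPM) was not called. Of 16 mature neutrophil genes 15 were tested and 6 called between numbers, all higher in number 3 (40% of those tested, against 9.09% of all genes). Their sum ran from 504 to 4467 CPM over the whole list, lowest in Gata2 f/f 1 and highest in Gata2 KO 3. S100a8 ranged from 66.6 to 1002 CPM and Mmp8 from 18.4 to 992 CPM, and neither was called between numbers. Between genotypes, 16 of 18 monocyte and macrophage genes had positive log2 fold changes (median 0.37), against 52.5% of all genes. So had 14 of 15 tested mature neutrophil genes (median 1.57). By edgeR 0 of either list were called there. DESeq2 with the block called 4 of the first list and 7 of the second, against 1.62% of all genes. Stem and progenitor genes had negative differences between numbers for 9 of 11 tested members (median -1.09, against 0.00 over all genes). By edgeR 2 were called (18.2%, against 9.09% of all genes), Myb lower (-1.26 ± 0.19, adjusted p = 0.0266) and Procr higher (2.54 ± 0.37, 0.0251). Kit, the receptor for SCF, had 88.7, 78.1 and 28.5 CPM with Gata2 f/f, against 59.7, 58.0 and 1.34 CPM in the KO libraries (-2.90 ± 0.87, not called at 0.145). Spi1 (220 to 636 CPM) and Hoxa9 (168 to 231 CPM), the most abundant of the list, were not called, and Myb, Procr and Kit were named after their values were seen. The part that maturity of the cells has in the Schlafen levels was not tested.

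T cells, which express Slfn1 and Slfn2 strongly, left few marker reads. Cd3e had at most 0.239 CPM, Cd3d 0.462, Cd4 0.0543 and Trac 0.271, with a 0 in at least 1 library for Cd3e and Cd4. Of 12 T cell genes 5 were tested and 1 called between numbers (20%, against 9.09% of all genes). It was Il7r (at most 13.6 CPM, higher in number 3). Thy1 and Cd28, also found on other cells, made up most of the sum of this list, 23.7 to 125 CPM. The Thy1 values of the libraries numbered 3 were 82.4 (f/f) and 13.3 CPM (KO). The B cell list had 2.24 to 8.40 CPM (Cd79b up to 5.93 CPM and Blnk, called higher in number 3, up to 2.61 CPM; Pax5 and Rag1 at 0), the NK cell list 4.75 to 22.5 CPM, mostly Nkg7 (2.90 to 21.6 CPM), called lower in number 3 (Ncr1 and Klrb1c at 0), and the erythroid list 3.02 to 12.1 CPM, led by Hbb-bs and Hba-a1. Mast cell and basophil genes had 8.99 to 48.8 CPM (led by Hdc and Mcpt8, highest in the library labelled Gata2 KO 2). Megakaryocyte genes had 5.71 to 60.7 CPM (led by Vwf and Ppbp). Of 4 tested megakaryocyte genes 2 were called, both higher in number 3 (50%, against 9.09% of all genes). The dendritic cell list had 33.6 to 70.1 CPM in the 4 libraries of numbers 1 and 2. It had 360 and 619 CPM in number 3, led by the class II genes Cd74 and H2-Ab1. Of its 5 tested genes 3 were called, all higher in number 3 (60%, against 9.09% of all genes). Flt3 had a log2 difference of -2.9 and was not called. Xcr1 had at most 1.39 CPM, Clec9a 0.228, Batf3 0.228 and Zbtb46 0.462, and Siglech was at 0. The stromal and endothelial list had 135 to 220 CPM, mostly Pecam1, which leukocytes also express, with Col1a1 at 3.61 to 16.7 CPM. Of its 10 genes 5 were called, all higher in number 3 (50%, against 9.09% of all genes). The part of these cell types in the Schlafen levels was not tested.

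**Figure D4:**
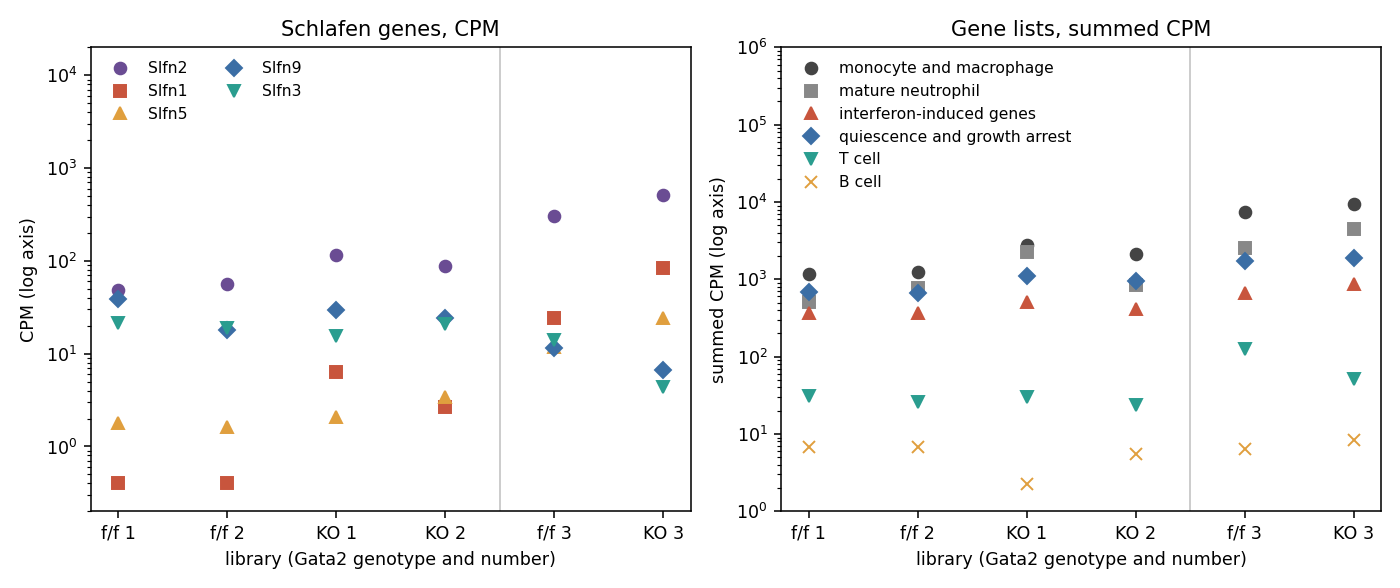
CPM of 5 Schlafen genes (left) and summed CPM of 6 gene lists (right) in each library, both on log axes, with the libraries numbered 3 to the right of the grey line. Slfn1, Slfn2 and Slfn5 and the monocyte and macrophage list are highest in Gata2 f/f 3 and KO 3, Slfn3 and Slfn9 are lowest there, and the B cell list stays between 2.24 and 8.40 CPM.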

How the data were processed

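Poly(A) RNA was sequenced as paired-end reads of 90 bp from 6 libraries, 3 per genotype, per the labels' protocols. The authors deposited 1 table of raw counts per gene with a column per sample. Per the submitters' processing notes, kallisto, HTSeq, DESeq2 and the build mm10 were used, without role or version; the sources used here give neither annotation nor strand setting. Of 49585 identifiers, 49326 matched GENCODE M21 without version. Members and lists were chosen with earlier results of these data known.

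Genes passing filterByExpr (minimum count 10; 13744 genes, 99.9% of counts) were TMM-scaled and tested by edgeR's quasi-likelihood test, Benjamini-Hochberg adjusted over all genes, threshold 0.05, for genotype and, with genotype in the fit, for library number. The software was R 4.3.3, edgeR 4.0.16 and DESeq2 1.42.0. The edgeR tests were also run on counts simulated with a genotype or a number effect, never both. Those runs therefore do not show how the genotype fit without a block behaves where the numbers differ. Levels per length used merged exons of GENCODE M21. Deviations of log2 CPM (prior count 2) from the genotype mean correlated between libraries of equal number at 0.29, 0.55 and 0.65, all over 0.1. Numbers were therefore taken as pairs in the ratios within a number and in the fits with a block. The main genotype fit had no block. Pairing is weak for number 1, since Gata2 f/f 1 and KO 2 reached 0.46. No libraries were duplicates (chi-square per degree of freedom at least 35.5). That lowest value came from f/f 1 with KO 2, a pair of unlike genotype labels. KO 2 had 71.6 with f/f 2 and 200 with f/f 3, against 147 with KO 1 and 299 with KO 3. The f/f libraries 1 and 2 had 93.8 with each other. KO 1 also had lower values with f/f 2 and 3 (126 each) than with KO 2 or with KO 3 (288). What these values mean for the label of KO 2 was not tested. The labels do not name separate animals or cultures, so p-values cover only the spread among these 6 libraries, which may be technical; counts are of reads without molecular identifiers.

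Named genes were the 7 members, other Schlafen genes, Gata2, the 3 of highest level and 2 of smallest genotype p of each pathway list, the 2 of highest level of each marker list, and the 3 genes (mean of at least 5 CPM) most correlated with each member; others were named after their values were seen. Alternatives were DESeq2 size factors, upper-quartile scaling, no filter, a mean CPM of at least 1, DESeq2, the replicate block, no genotype term, summed near copies, transcript length and leaving out libraries; leaving out the library labelled Gata2 KO 2 with the block in place was added after seeing the data.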

Additional observations from a re-analysis of the deposited data

How the results depend on the processing

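With 3 libraries per genotype, precision is limited by their number. Low counts limit it too for some members. Slfn1 had 7 and 9 reads in Gata2 f/f 1 and 2, and Slfn8 had 19 to 96 reads per library. Slfn5 had 31 to 62 reads in the libraries of numbers 1 and 2, and Slfn4 had 53 to 203 per library. Genes called between genotypes numbered 0 under edgeR in every alternative without a block and with the replicate block (0), except 54 with the replicate block and without the library labelled Gata2 KO 2; DESeq2 called 7, and 222 with the replicate block. The median log2 fold change of the 7 members, 0.82, was 0.81 with the replicate block and ran from -0.43 (without Gata2 KO 3) to 1.21 when a library was left out. With the replicate block, DESeq2 called Slfn1 (adjusted p = 2.38e-07) and Slfn2 (0.00999), whereas edgeR gave 0.298 and 0.394.

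Genes called between numbers, 1249, were 2348 with no filter, 2870 with DESeq2 and 444 with no genotype term, and ran from 757 (without Gata2 KO 3) to 3460 (without Gata2 f/f 3) when a library was left out. Of the 7 members, 4 were called; 2 were with no genotype term (Slfn1 lost at adjusted p = 0.114), and 2 to 5 when a library was left out. That leaves 1 library in its number, which is assumed to vary like the others. The sign of each member's difference between numbers held in all 12 of these settings. It turned when near copies were summed, to -0.65 for Slfn4 summed with Slfn3 and to -1.18 for Slfn8 summed with Slfn9; those sums are dominated by the more abundant copy. The cause of the other shifts was not tested. The order of levels per kb kept Slfn2 first and Slfn8 last in all 9 alternatives.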
